A study of Arabidopsis thaliana with 12 samples.

Results

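The genes described here are 8 Arabidopsis thaliana transporter genes of the MTP, HMA and ZIF families. They were grouped for the storage of zinc, manganese and other metals in the vacuole or their export from cells, though not every one is itself a metal carrier. They are listed by name for the known roles of these families, not by a cut-off on measured values. Earlier results of these data were known when they were chosen. They are MTP1 (AT2G46800), MTP3 (AT3G58810), MTP8 (AT3G58060), HMA2 (AT4G30110), HMA3 (AT4G30120), HMA4 (AT2G19110), ZIF1 (AT5G13740) and ZIFL1 (AT5G13750). They are 8 of the 33607 genes measured, and every one of them has a row in both deposited tables. The study measured polyadenylated RNA by RNA sequencing in wild-type Col-0 seedlings, with whole rosettes and roots sampled apart. All seedlings grew for 10 days in vitro on complete ES medium with 1.5% sucrose, with 25 on each plate, in constant light (50 µmol m-2 s-1), and all were then moved to a fresh plate for 72 h. The 12 libraries form 4 groups of 3, namely Fe-deficient rosettes, control rosettes, Fe-deficient roots and control roots. Fe-deficient seedlings were moved to ES medium without iron that held 100 µM FerroZine, a chelator of ferrous iron, so the removal of iron and the chelator come together. Control seedlings were moved to full ES medium. Levels are RPKM, a read level corrected for both gene length and sequencing amount, which allows levels to be compared between genes.

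Roots short of iron make more of the iron importer IRT1, which also carries zinc, manganese, cobalt and cadmium, so that these metals enter together with the little iron that is left. Plants deal with such metals by pumping them into the vacuole or by loading them into the xylem for export to the shoot. MTP1 and MTP3 are zinc carriers of the vacuolar membrane, and MTP8 is a manganese carrier of the same family, the cation diffusion facilitators. HMA2, HMA3 and HMA4 are pumps that use ATP. HMA2 and HMA4 sit in the plasma membrane and load zinc into the xylem, and HMA3 sits in the vacuolar membrane. The HMA3 allele of Col-0 is known to code for a truncated pump. ZIF1 moves nicotianamine, a chelator of metal ions, into the vacuole, and ZIFL1 is its neighbour on the chromosome, known for a role in auxin transport.

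In the TAIR10.1 annotation, ZIF1 lies at chr5:4432297-4437148 and ZIFL1 at chr5:4437804-4441701, both on the plus strand with 655 bases between them. HMA2 lies at chr4:14720062-14725311 and HMA3 at chr4:14730215-14733628, both on the minus strand with 4903 bases between them. MTP3 lies at chr3:21749966-21752141 on the plus strand, MTP8 at chr3:21497633-21499943 on the minus strand, MTP1 at chr2:19235374-19239577 on the plus strand and HMA4 at chr2:8278789-8286561 on the plus strand. No annotated gene overlaps any of the 8. The annotated coding sequence of HMA3 has 542 codons, against 951 codons in HMA2 and 1172 in HMA4, and 839 transcribed bases follow its stop codon.

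The 300 bases before the annotated start of 4 of the genes are shown because they set ZIF1, MTP8 and HMA3, whose transcripts changed with iron deficiency, beside ZIFL1, which neighbours ZIF1 and was not called. Sequences are RefSeq TAIR10.1, written 5′ to 3′ on the strand of the gene. Capitals mark every match to CANNTG, the E-box letters that bHLH transcription factors can bind.
ZIF1 chr5:4431997-4432296 plus strand: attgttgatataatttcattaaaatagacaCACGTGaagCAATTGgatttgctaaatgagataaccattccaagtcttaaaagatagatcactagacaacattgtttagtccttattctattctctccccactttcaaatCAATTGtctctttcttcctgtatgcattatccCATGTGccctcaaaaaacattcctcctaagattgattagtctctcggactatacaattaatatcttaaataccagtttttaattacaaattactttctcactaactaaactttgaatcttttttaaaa
ZIFL1 chr5:4437504-4437803 plus strand: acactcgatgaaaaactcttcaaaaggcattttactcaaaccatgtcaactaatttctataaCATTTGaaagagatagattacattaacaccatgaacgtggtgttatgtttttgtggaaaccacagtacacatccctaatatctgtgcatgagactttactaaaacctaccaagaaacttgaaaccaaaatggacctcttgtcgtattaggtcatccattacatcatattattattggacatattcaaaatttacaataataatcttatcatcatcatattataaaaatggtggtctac
MTP8 chr3:21499944-21500243 minus strand: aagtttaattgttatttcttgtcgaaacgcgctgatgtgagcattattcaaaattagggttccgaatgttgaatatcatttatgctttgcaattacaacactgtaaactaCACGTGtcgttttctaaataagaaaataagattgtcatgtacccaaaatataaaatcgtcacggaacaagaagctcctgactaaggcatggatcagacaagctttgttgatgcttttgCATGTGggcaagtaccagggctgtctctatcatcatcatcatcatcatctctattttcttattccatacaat
HMA3 chr4:14733629-14733928 minus strand: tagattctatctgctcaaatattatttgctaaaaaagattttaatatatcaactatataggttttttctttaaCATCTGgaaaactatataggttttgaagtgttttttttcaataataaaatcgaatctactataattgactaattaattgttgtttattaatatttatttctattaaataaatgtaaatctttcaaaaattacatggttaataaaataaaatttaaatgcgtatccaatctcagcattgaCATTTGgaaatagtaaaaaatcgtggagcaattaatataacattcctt

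The background is the 27443 upstream windows of the same length before protein-coding genes of the nuclear chromosomes. ZIF1 holds 4 matches to CANNTG in this window, which 2.28% of these windows reach or exceed. MTP8, HMA3 and MTP3 hold 2 each, a number reached by 26.2% of windows. HMA2, HMA4 and ZIFL1 hold 1 each, reached by 61.9% of windows, and MTP1 holds 0. The MTP1 window overlaps the annotated gene AT2G46790, and the MTP3 window overlaps AT3G58800. The G-box CACGTG, which is also counted among the CANNTG matches, stands 270 bases before the start of ZIF1 and 190 bases before that of MTP8. It stands in 7.09% of all windows and in no other window of the 8 genes. TGTCGACA, the letters bound by the zinc deficiency factors bZIP19 and bZIP23, is in none of the 8 windows and in 0.324% of all windows. These letters read alike on both strands, so 1 search covers both. A match to the letters is a description of the sequence and was not tied to binding by any measurement.

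In roots, MTP3, MTP8, HMA3 and ZIF1 rose with iron deficiency, and in rosettes ZIF1 rose. HMA2, HMA4, MTP1 and ZIFL1 were not called in either organ. Calls were made where the adjusted p was under 0.05 in a moderated linear model (limma) of log2(RPKM + 0.5), fitted on all genes that averaged 1 RPKM or more in the organ. By that rule 4 of the 8 genes were higher in Fe-deficient roots and 0 were lower, where 3.52% of all 19932 genes tested in roots were higher and 5.87% were called in either direction. In rosettes 6 of the 8 genes passed the filter, 1 of them was higher and 0 were lower, where 0.679% of 19006 genes were higher and 1.96% were called in either direction. The median log2 difference over the 8 genes, tested or not, Fe-deficient minus control, was 0.89 in roots and 0.08 in rosettes, and over all genes tested it was -0.0185 in roots and 0.00103 in rosettes. Counted at an unadjusted p under 0.05 in the same limma fit, 5 members were higher and 1 was lower in roots (MTP1), and 3 were higher and 0 lower in rosettes, where 21.3% of all genes tested in roots and 16.2% of those in rosettes passed that threshold in either direction. MTP8 and HMA3 stayed under the filter in rosettes, and MTP8 in roots and MTP3 in rosettes passed it only through their level in Fe-deficient libraries, so their direction was in part set by the filter. Photosynthesis markers moved with the group in roots, at a summed 100.1 to 129.8 RPKM in Fe-deficient libraries and 142.0 to 152.7 RPKM in control libraries, and their part in the root results was not tested.

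**Figure D1:**
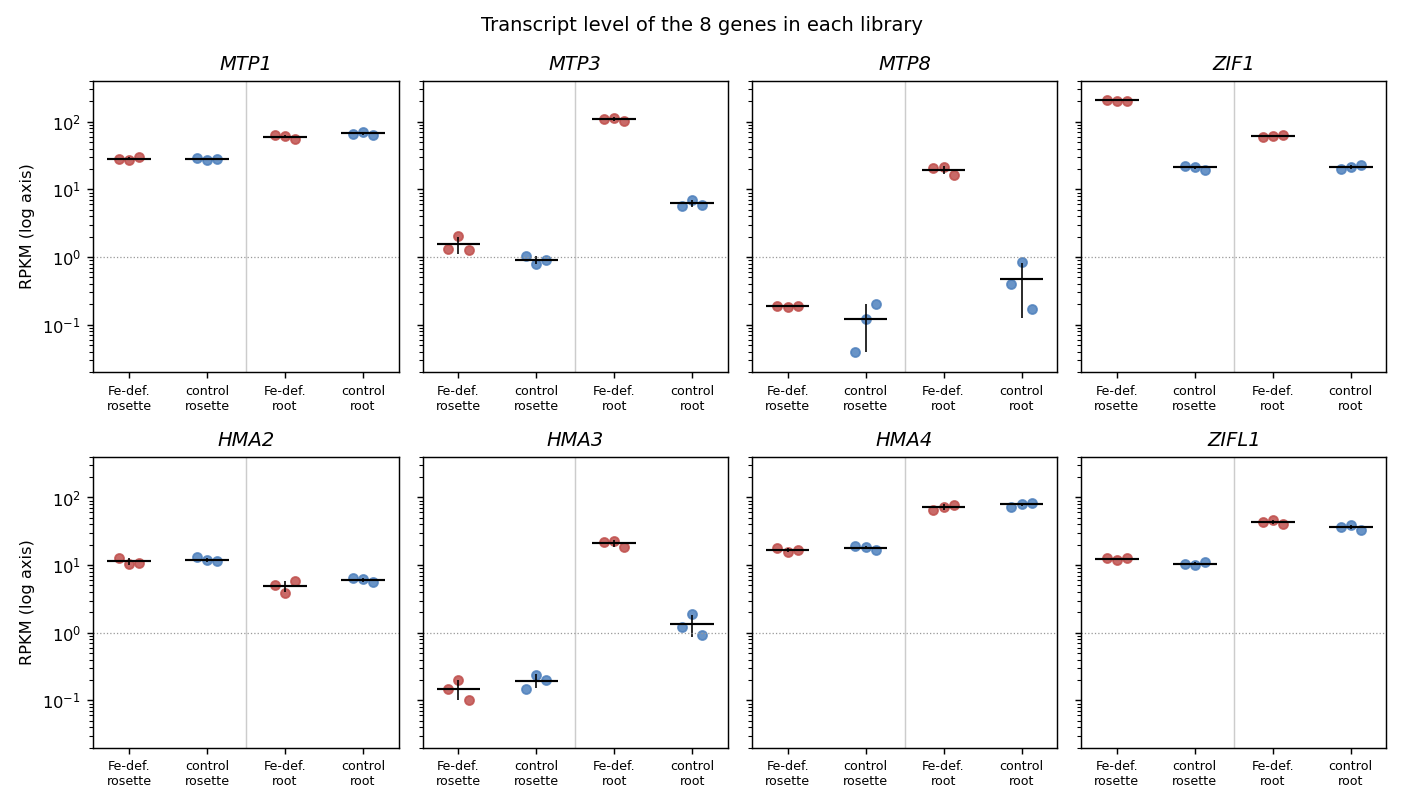
RPKM on a log axis for each of the 8 genes in Fe-deficient and control rosettes and in Fe-deficient and control roots, with 1 point per library, a line at the mean of 3 libraries and a vertical bar of 1 SD (drawn no lower than the axis limit). MTP3, MTP8 and HMA3 stand apart between Fe-deficient and control libraries in roots, ZIF1 does so in both organs, and the dotted line marks 1 RPKM.

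Among the vacuolar carriers of the MTP family, MTP3 reached 110.78, 115.57 and 102.42 RPKM in Fe-deficient roots, against 5.6, 7.05 and 5.98 RPKM in control roots. Every Fe-deficient root library was far above every control one. The means were 109.6 ± 6.66 RPKM in Fe-deficient roots and 6.21 ± 0.752 RPKM in control roots (SD, n = 3 each), a 17.6-fold ratio of means. The log2 difference was 4.04 (SE 0.0946, 95% interval 3.82 to 4.27, adjusted p = 2.09e-06), which ranked 27 from the top among the 19932 genes tested in roots. In rosettes MTP3 stood at 1.31, 2.04 and 1.26 RPKM in Fe-deficient libraries, against 1.04, 0.79 and 0.9 RPKM in control libraries. The rosette groups did not overlap, yet the log2 difference of 0.51 (95% interval 0.08 to 0.95) was not called (adjusted p = 0.243).

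The MTP3 response was smaller in rosettes than in roots. The rosette log2 difference minus the root one was -3.53 (SE 0.203, 95% interval -3.98 to -3.07, adjusted p = 1e-05), in a test by which 3.48% of 17680 genes differed between organs in either direction. AT3G58800, the annotated neighbour that overlaps the window before MTP3, was at 6.65, 6.44 and 7.21 RPKM in Fe-deficient roots, against 7.64, 6.61 and 8.95 RPKM in control roots. Its groups overlapped in roots.

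MTP8 reached 20.96, 21.3 and 16.29 RPKM in Fe-deficient roots, against 0.4, 0.85 and 0.17 RPKM in control roots, so all control root libraries were below 1 RPKM. The means were 19.5 ± 2.8 RPKM in Fe-deficient roots and 0.473 ± 0.346 RPKM in control roots (SD, n = 3 each), a 41.2-fold ratio that rests on very low control levels. The difference after log2(RPKM + 0.5), a scale on which the change of so low a gene is understated, was 4.41 (SE 0.26, 95% interval 3.79 to 5.03, adjusted p = 0.000162). In rosettes MTP8 was at 0.19, 0.18 and 0.19 RPKM in Fe-deficient libraries, against 0.04, 0.12 and 0.2 RPKM in control libraries. The rosette groups overlapped and the gene was too low to be tested there. With no filter on low values, the rosette difference minus the root difference was -4.26 for MTP8 (adjusted p = 0.00412).

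MTP1, whose product resembles MTP3, was at 62.69, 61.64 and 56.48 RPKM in Fe-deficient roots, against 66.56, 70.65 and 64.33 RPKM in control roots. The Fe-deficient root libraries were all slightly below the control ones, with a log2 difference of -0.16 (95% interval -0.31 to -0.0045) that was not called (adjusted p = 0.221). In rosettes MTP1 was at 27.8, 27.26 and 30.53 RPKM in Fe-deficient libraries, against 29.53, 27.06 and 28.33 RPKM in control libraries. The rosette groups overlapped, and the log2 difference was 0.01 (95% interval -0.14 to 0.16, adjusted p = 0.955).

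Among the pumps, HMA3 reached 21.81, 23.01 and 18.4 RPKM in Fe-deficient roots, against 1.22, 1.89 and 0.94 RPKM in control roots. The groups lay far apart, with means of 21.1 ± 2.39 RPKM in Fe-deficient roots and 1.35 ± 0.488 RPKM in control roots (SD, n = 3 each), a 15.6-fold ratio. The log2 difference was 3.57 (SE 0.197, 95% interval 3.1 to 4.04, adjusted p = 0.000115). In rosettes HMA3 was close to absent, at 0.15, 0.2 and 0.1 RPKM in Fe-deficient libraries, against 0.15, 0.24 and 0.2 RPKM in control libraries, and it was not tested. With no filter on low values, the rosette difference minus the root difference was -3.67 for HMA3 (adjusted p = 0.00213).

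HMA4, the main zinc loader of the xylem, was at 64.91, 72.81 and 78.54 RPKM in Fe-deficient roots, against 73.21, 80.53 and 82.43 RPKM in control roots. In rosettes HMA4 was at 18.02, 15.57 and 16.61 RPKM in Fe-deficient libraries, against 18.96, 18.79 and 16.89 RPKM in control libraries. The groups overlapped in both organs. The log2 difference was -0.13 in roots (95% interval -0.33 to 0.07, adjusted p = 0.444) and -0.12 in rosettes (95% interval -0.31 to 0.07, adjusted p = 0.508).

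HMA2, which shares the xylem-loading role with HMA4, was at 5.1, 3.87 and 5.77 RPKM in Fe-deficient roots, against 6.45, 6.15 and 5.6 RPKM in control roots. In rosettes HMA2 was at 12.85, 10.43 and 10.74 RPKM in Fe-deficient libraries, against 12.98, 11.78 and 11.39 RPKM in control libraries. Again the groups overlapped in both organs. The log2 difference was -0.29 in roots (95% interval -0.65 to 0.06, adjusted p = 0.326) and -0.09 in rosettes (95% interval -0.33 to 0.15, adjusted p = 0.72). These intervals bound the size of a change in HMA2 and HMA4 but do not show that there was none.

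ZIF1 reached 209.01, 206.05 and 204.96 RPKM in Fe-deficient rosettes, against 21.9, 21.78 and 19.68 RPKM in control rosettes. In roots it reached 59.25, 61.09 and 64.73 RPKM in Fe-deficient libraries, against 19.79, 21.21 and 22.59 RPKM in control libraries. The groups were wide apart in both organs, and the larger change was in rosettes. The rosette means were 207 ± 2.1 RPKM in Fe-deficient plants and 21.1 ± 1.25 RPKM in control plants (SD, n = 3 each), a 9.79-fold ratio with a log2 difference of 3.26 (SE 0.0522, 95% interval 3.13 to 3.39, adjusted p = 2.6e-06). The root means were 61.7 ± 2.79 RPKM in Fe-deficient plants and 21.2 ± 1.4 RPKM in control plants, a 2.91-fold ratio with a log2 difference of 1.52 (SE 0.0688, 95% interval 1.36 to 1.68, adjusted p = 3.97e-05).

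The ZIF1 response differed between organs in the direction opposite to that of MTP3. The rosette log2 difference minus the root one was 1.74 (SE 0.0864, 95% interval 1.55 to 1.93, adjusted p = 2.25e-07). By rank, ZIF1 was 29 from the top of the 19006 genes tested in rosettes and 131 from the top of the 19932 tested in roots. The levels of the organs come from tables normalised separately, so levels are set beside each other between organs as description and only the responses were tested.

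ZIFL1, which begins 655 bases after ZIF1 ends, was at 12.81, 11.87 and 12.66 RPKM in Fe-deficient rosettes, against 10.37, 9.99 and 11.08 RPKM in control rosettes. In roots ZIFL1 was at 42.72, 46.38 and 40.9 RPKM in Fe-deficient libraries, against 36.44, 38.52 and 33.53 RPKM in control libraries. The Fe-deficient libraries were above all control libraries in both organs by a small margin. The log2 difference was 0.24 in rosettes (95% interval 0.08 to 0.4, adjusted p = 0.163) and 0.26 in roots (95% interval 0.08 to 0.44, adjusted p = 0.107), and neither was called. The rosette difference minus the root difference was -0.02 (95% interval -0.24 to 0.2, adjusted p = 0.953).

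Groups without overlap were common in these tables. They were seen in 3 of the 6 members tested in rosettes and in 6 of the 8 tested in roots, where 21.4% of all genes tested in rosettes and 26.1% of those tested in roots had groups without overlap. With 3 libraries against 3, an exact permutation test of a single gene cannot go below p = 0.1, so the tests rest on the spread estimated over all genes. For the members tested in both organs and not called between them, the rosette minus root difference was 0.17 for MTP1 (adjusted p = 0.39), 0.2 for HMA2 (adjusted p = 0.642) and 0.01 for HMA4 (adjusted p = 0.983).

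**Figure D2:**
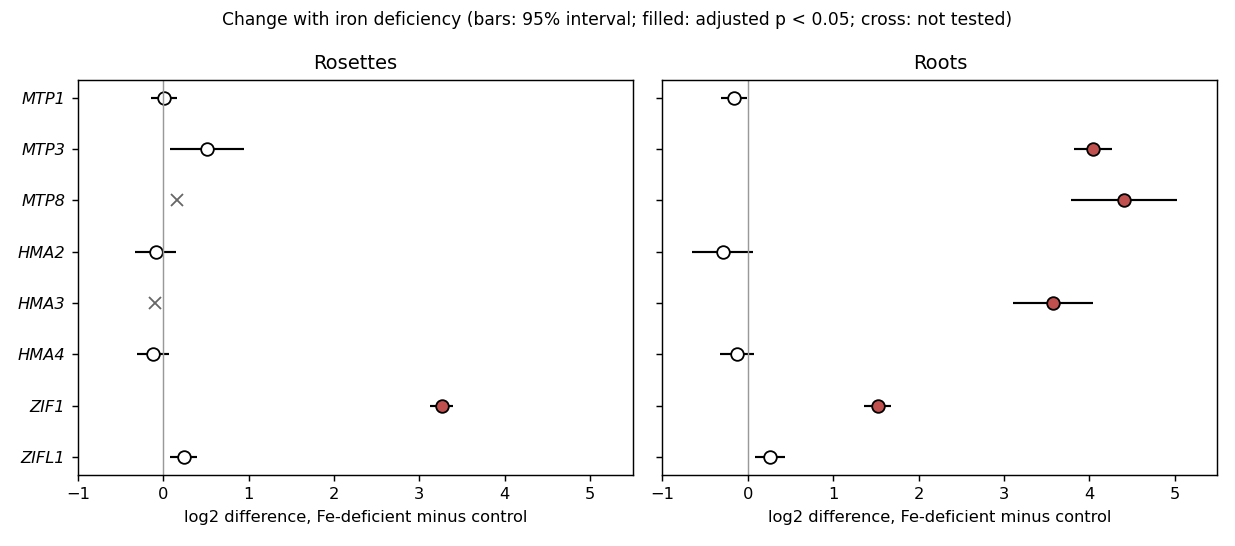
Log2 difference (Fe-deficient minus control, log2(RPKM + 0.5) scale) of each of the 8 genes in rosettes and in roots with its 95% interval, filled where the adjusted p is under 0.05 and crossed where the gene was too low to test. The called differences are 3.26 for ZIF1 in rosettes and 4.04, 4.41, 3.57 and 1.52 for MTP3, MTP8, HMA3 and ZIF1 in roots.

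In roots, MTP3, HMA3 and ZIF1 stood above a related gene in Fe-deficient libraries and below it in control libraries. Within each library, MTP3 over MTP1 was 1.77, 1.87 and 1.81 in Fe-deficient roots, against 0.0841, 0.0998 and 0.093 in control roots. MTP3 thus stood above MTP1 in every Fe-deficient root library and below it in every control one. HMA3 over HMA2 was 4.28, 5.95 and 3.19 in Fe-deficient roots, against 0.189, 0.307 and 0.168 in control roots, with the same exchange of order. HMA3 did not change order with HMA4. It was at most 23.01 RPKM where HMA4 was at least 64.91 RPKM in Fe-deficient roots. In control roots HMA3 was at most 1.89 RPKM and HMA4 at least 73.21 RPKM. ZIF1 over ZIFL1 was 1.39, 1.32 and 1.58 in Fe-deficient roots, against 0.543, 0.551 and 0.674 in control roots. In rosettes ZIF1 over ZIFL1 was 16.3, 17.4 and 16.2 in Fe-deficient libraries, against 2.11, 2.18 and 1.78 in control libraries, so ZIF1 led in both groups there. MTP8 over MTP3 was 0.189, 0.184 and 0.159 in Fe-deficient roots, against 0.0714, 0.121 and 0.0284 in control roots, so MTP8 stayed below MTP3 in every root library. HMA2 over HMA4, the pair of xylem loaders, averaged 0.0684 ± 0.0134 in Fe-deficient roots and 0.0775 ± 0.0101 in control roots, and 0.677 ± 0.0337 in Fe-deficient rosettes and 0.662 ± 0.0308 in control rosettes (SD, n = 3 each). These ratios overlapped between Fe-deficient and control libraries in both organs.

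**Figure D3:**
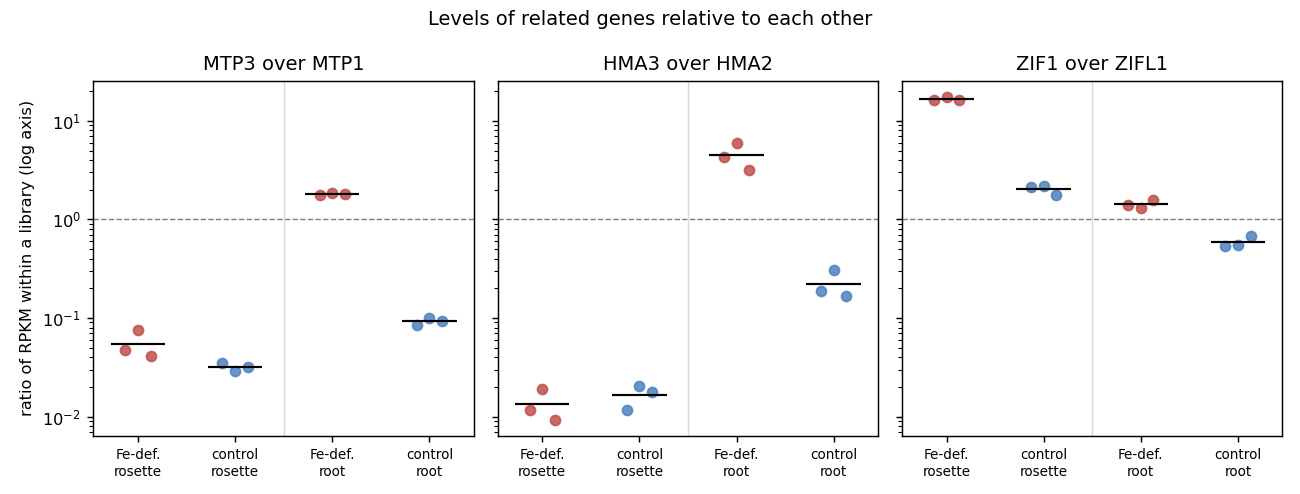
Ratio of RPKM of 2 related genes within each library, on a log axis, for MTP3 over MTP1, HMA3 over HMA2 and ZIF1 over ZIFL1, with 1 point per library, a line at the mean of 3 and a dashed line at equal levels. In roots all 3 ratios lie above equality in the Fe-deficient libraries and below it in the control libraries, as for MTP3 over MTP1 at 1.77 to 1.87 against 0.0841 to 0.0998.

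The order of levels in Fe-deficient roots was MTP3 first, then HMA4, ZIF1, MTP1, ZIFL1, HMA3, MTP8 and HMA2, where the libraries of ZIF1 and MTP1 overlapped and so did those of HMA3 and MTP8. In control roots it was HMA4 first, then MTP1, ZIFL1, ZIF1, MTP3, HMA2, HMA3 and MTP8, where MTP3 and HMA2 overlapped. In Fe-deficient rosettes it was ZIF1 first, then MTP1, HMA4, ZIFL1, HMA2, MTP3, MTP8 and HMA3, where ZIFL1 overlapped HMA2 and MTP8 overlapped HMA3. In control rosettes it was MTP1 first, then ZIF1, HMA4, HMA2, ZIFL1, MTP3, HMA3 and MTP8, where the last pair overlapped. The other neighbours in these orders did not overlap.

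The summed level of the 8 genes was 282.1, 273.6 and 277.1 RPKM in Fe-deficient rosettes, against 94.97, 90.55 and 88.67 RPKM in control rosettes. ZIF1 made up 74.5% of that sum in Fe-deficient rosettes and 23.1% in control rosettes. In roots the sum was 388.2, 405.7 and 383.5 RPKM in Fe-deficient libraries, against 209.7, 226.9 and 215.6 RPKM in control libraries. MTP3 made up 27.9% of the sum in Fe-deficient roots and 2.85% in control roots. In control roots the leading shares were those of HMA4, 36.2%, and MTP1, 30.9%, where in Fe-deficient roots they were 18.4% for HMA4 and 15.4% for MTP1.

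Relatives that share long identical stretches can have reads credited to the wrong gene. The only stretch of 50 or more identical bases found between a member and another annotated transcript was one of MTP1, which shares 30 windows of 50 bases with AT2G00960 on the same strand, so the level of MTP1 is uncertain to that extent. The aligned coding bases of MTP3 and MTP1 were 71.7% identical, with a longest identical run of 26 bases. Identity was 74.5% for HMA3 and HMA2 with a longest run of 23 bases, 73.5% for HMA3 and HMA4 with 26 bases, 76.6% for HMA2 and HMA4 with 30 bases, and 70.0% for ZIF1 and ZIFL1 with 17 bases. Read length and the treatment of reads with several matches are not given in the sources used here.

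MTP3, MTP8 and HMA3 varied together across libraries, and ZIF1 followed another pattern. Over the 12 libraries, after the mean of each organ was subtracted, the Pearson correlation on the log2 scale was 0.996 between MTP8 and HMA3, 0.984 between MTP3 and MTP8 and 0.98 between MTP3 and HMA3. ZIF1 correlated at 0.53 with MTP3, 0.445 with MTP8 and 0.39 with HMA3. These are descriptions, since the points share their treatment groups and tables, and the contrast between groups sets most of their size.

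By the same measure among 21257 genes, those most like MTP3 were AT3G12900 (0.996), AT1G18910 (0.995) and AT1G53635 (0.995). AT3G12900 is a 2-oxoglutarate and iron-dependent oxygenase gene, and AT1G53635 has no annotated function. In roots the log2 differences were 7.78 for AT3G12900, 1.71 for AT1G18910 and 4.32 for AT1G53635. Likeness of pattern thus came with unequal sizes of change. The genes most like MTP8 were HMA3 (0.996), the phosphofructokinase gene PFK1 (0.996) and ATARD2, an acireductone dioxygenase gene (0.995). The genes most like HMA3 were MTP8 (0.996), PFK1 (0.996) and ATARD2 (0.994), with root log2 differences of 1.34 for PFK1 and 1.28 for ATARD2. The genes most like ZIF1 were ORG1 (0.998), BTS, an iron-binding ubiquitin ligase that restrains the iron deficiency response (0.997), and NRAMP4, which releases iron from the vacuole (0.994). ORG1, BTS and NRAMP4 had larger log2 differences in rosettes, of 4.4, 3.41 and 2.31, than in roots, of 2.35, 1.32 and 1.28. They were picked for a pattern like that of ZIF1, so this shared order of organs follows from the choice.

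In roots, MTP3, MTP8 and HMA3 were each highest in replicate 2 of both groups, and replicate 3 was the lowest of the Fe-deficient libraries for all 3 genes. The summed level of 5 epidermis and root hair markers was 109.7, 116.0 and 96.48 RPKM in Fe-deficient roots, against 92.94, 107.0 and 99.72 RPKM in control roots, with replicate 2 the highest in both groups. The summed level of 4 endodermis markers was 153.7, 193.0 and 148.9 RPKM in Fe-deficient roots, against 162.7, 174.2 and 141.2 RPKM in control roots, again with replicate 2 the highest. The sum of 3 stele markers was 200.2, 202.4 and 238.8 RPKM in Fe-deficient roots, against 200.4, 200.3 and 213.0 RPKM in control roots. The sums overlapped between Fe-deficient and control roots for all 3 marker lists, and their part in the results was not tested. The lowest mean of any marker of these 3 lists in a root group was 5.34 RPKM. In whole organs, fewer cells of a type and less RNA per cell cannot be told apart.

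The organ labels matched their markers. The sum of 5 photosynthesis markers was 19270 to 20090 RPKM in Fe-deficient rosettes and 20010 to 20710 RPKM in control rosettes. It was far lower in roots, where 2 of the 5 averaged under 1 RPKM. The root groups did not overlap in this sum. Of the 3 markers tested in roots 2 were lower, where 2.35% of all genes tested in roots were lower. RCA, which activates Rubisco, averaged 13.3 ± 1.63 RPKM in Fe-deficient roots and 23.96 ± 3.06 RPKM in control roots (log2 difference -0.82, adjusted p = 0.0133), a call lost without control root replicate 2 (0.0673) or 3 (0.0531) and with no filter (0.0829). RBCS1A, a small subunit of Rubisco, averaged 38.9 ± 2.55 RPKM in Fe-deficient roots and 51.7 ± 4.04 RPKM in control roots (-0.41, adjusted p = 0.0326; SD, n = 3 each). The RBCS1A call was lost in 8 of 15 alternatives, among them leaving out Fe-deficient root replicate 1 (0.0557), 2 (0.122) or 3 (0.0969) or control root replicate 2 (0.118) or 3 (0.0972). CAB1, the third marker tested, had a log2 difference of -0.15 (adjusted p = 0.584). PYK10, a root glucosidase gene, stood at 2926 RPKM in every root library. In rosettes PYK10 was at 103.0 to 138.3 RPKM in Fe-deficient libraries and 121.5 to 141.8 RPKM in control libraries. RCA was likewise tied, at 2616 ± 0 RPKM in both rosette groups. The deposited values can tie highly expressed genes, so such equal values and the near-equal rosette sums do not show constant levels. Sequencing depth is unknown. In rosette libraries 18879 to 18947 genes reached 1 RPKM, and in root libraries 19790 to 19843.

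Other genes of the same 3 families mostly did not pass the test. Of 15 such genes, 13 were tested in roots, with 1 higher and 0 lower, and 13 in rosettes, with 0 called. Of all genes tested, 5.87% in roots and 1.96% in rosettes were called in either direction. The median log2 difference over all 15 was 0.06 in roots and 0.0 in rosettes. At an unadjusted p under 0.05 (limma), 1 was higher and 2 were lower in roots, and 2 were higher and 1 was lower in rosettes, against the 21.3% of all genes in roots and 16.2% in rosettes that pass it in either direction. The called gene was HMA1, a pump of the chloroplast envelope, with 24.2 ± 2.06 RPKM in Fe-deficient roots and 15.9 ± 1.31 RPKM in control roots (SD, n = 3 each), a log2 difference of 0.59 (adjusted p = 0.0146). The call on HMA1 was lost without Fe-deficient root replicate 1 (adjusted p = 0.0639), Fe-deficient root replicate 2 (0.074) or control root replicate 2 (0.0591), and with no filter on low values (0.0702). The 12 that were not called lay between -0.34 and 0.19 in roots. In rosettes the 13 tested genes lay between -0.36 and 0.25. MTP2 and MTP4, close relatives of MTP1 and MTP3, stayed under the filter in both organs. MTP2 averaged 0.23 ± 0.171 RPKM in Fe-deficient roots and 0.04 ± 0 RPKM in control roots, and MTP4 averaged 0.907 ± 0.217 RPKM in Fe-deficient roots and 0.917 ± 0.497 RPKM in control roots (SD, n = 3 each).

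Of 14 other genes of vacuolar storage, release and chelation, 13 were tested in roots, with 7 higher and 0 lower. Of all genes tested in roots, 3.52% were higher and 5.87% were called in either direction. At an unadjusted p under 0.05 (limma) 8 were higher and 0 lower, where 21.3% of all genes tested in roots pass in either direction. The median log2 difference over all 14 was 0.31. FPN2, a vacuolar carrier of cobalt and nickel also called IREG2, averaged 77.3 ± 5.25 RPKM in Fe-deficient roots and 10.2 ± 1.61 RPKM in control roots (log2 difference 2.88, adjusted p = 2.04e-05). CAX4, a vacuolar cation exchanger, averaged 17.7 ± 2.36 RPKM in Fe-deficient roots and 6.75 ± 0.375 RPKM in control roots (1.32, adjusted p = 0.000813). Like MTP8 and HMA3, FPN2, CAX4 and NAS2 were under the filter in rosettes. NRAMP4 rose in roots by 1.28 on the log2 scale (adjusted p = 3.34e-05), and PCR2, a zinc exporter, by 0.55 (adjusted p = 0.00953). The PCR2 call was lost without control root replicate 2 (adjusted p = 0.0597), with no filter (0.0602) and in 1 fit of all 12 libraries (0.229).

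The genes for nicotianamine synthase, the enzyme that makes the chelator carried by ZIF1, moved in different directions. In roots NAS1 averaged 213 ± 19.6 RPKM in Fe-deficient libraries and 47.9 ± 3.0 RPKM in control libraries (log2 difference 2.14, adjusted p = 1.82e-05), and NAS4 averaged 59.3 ± 3.39 RPKM in Fe-deficient libraries and 10.98 ± 0.793 RPKM in control libraries (2.38, adjusted p = 7.74e-06). NAS2 had a log2 difference of 0.45 in roots (adjusted p = 0.0249), a call lost in 9 of its alternatives, with an adjusted p of up to 0.14. These include leaving out any of 5 root libraries, namely Fe-deficient replicate 1 (0.092), Fe-deficient replicate 2 (0.0706), control replicate 1 (0.0564), control replicate 2 (0.108) and control replicate 3 (0.0648). In rosettes 11 of the 14 genes were tested, with 2 higher, 1 lower and a median over all 14 of 0.14. Of all genes tested in rosettes, 1.96% were called in either direction. NAS4 averaged 113 ± 16.0 RPKM in Fe-deficient rosettes and 18.0 ± 2.09 RPKM in control rosettes (2.61, adjusted p = 0.000242), and NRAMP4 averaged 98.2 ± 5.5 RPKM in Fe-deficient rosettes and 19.4 ± 0.971 RPKM in control rosettes (2.31, adjusted p = 2.1e-05). NAS3 fell, to 3.42 ± 0.729 RPKM in Fe-deficient rosettes against 16.5 ± 2.73 RPKM in control rosettes (-2.12, adjusted p = 0.00355; SD, n = 3 each). The genes of this list that were tested and not called lay between -0.16 and 0.12 in roots and between 0.06 and 0.23 in rosettes.

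The 9 genes of zinc supply hold the zinc deficiency regulators and zinc importers of the ZIP family. In roots 8 of them were tested, with 2 higher, 4 lower and a median over all 9 of -0.27. Of all genes tested in roots, 5.87% were called in either direction. ZIP3 averaged 22.6 ± 1.62 RPKM in Fe-deficient roots and 45.9 ± 1.3 RPKM in control roots (log2 difference -1.01, adjusted p = 0.000304). IRT3 averaged 21.1 ± 0.81 RPKM in Fe-deficient roots and 38.4 ± 2.49 RPKM in control roots (-0.84, adjusted p = 0.000765), and ZIP5 3.78 ± 0.217 RPKM in Fe-deficient roots and 7.59 ± 0.247 RPKM in control roots (-0.92, adjusted p = 0.00195). ZIP4 had a log2 difference of -0.64 (adjusted p = 0.0474), and its call was lost without Fe-deficient root replicate 2 (0.141) or 3 (0.131), without control root replicate 1 (0.0894), 2 (0.163) or 3 (0.117), and in 3 other alternatives. The genes that rose in roots were ZIP9, which passed the filter only through its Fe-deficient level, with 4.23 ± 0.56 RPKM in Fe-deficient libraries and 0.643 ± 0.236 RPKM in control libraries (2.06, adjusted p = 0.00132), and the regulator gene bZIP19, with 66.7 ± 1.64 RPKM in Fe-deficient libraries and 44.6 ± 3.36 RPKM in control libraries (0.58, adjusted p = 0.00384). In rosettes 6 genes were tested, with 0 higher, 1 lower and a median over all 9 of -0.18. Of all genes tested in rosettes, 1.96% were called in either direction. At an unadjusted p under 0.05 (limma) 0 were higher and 4 lower, where 16.2% of all genes tested in rosettes pass in either direction. IRT3 fell there, with 5.32 ± 0.628 RPKM in Fe-deficient rosettes and 16.4 ± 0.69 RPKM in control rosettes (-1.55, adjusted p = 0.000727; SD, n = 3 each).

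The 11 genes of iron uptake and its regulators give the setting of these changes. In roots 11 of 11 were called higher, with a median log2 difference of 4.83, where 3.52% of all genes tested were higher. MYB72 and BHLH100 passed the filter in roots only through their Fe-deficient level. In rosettes 8 of 11 passed the filter and were called higher, where 0.679% of all genes tested were higher. However, 6 of the 8 passed the filter only through their Fe-deficient level, so that count supports nothing by itself. Over all 11 the median was 2.96. In roots the log2 difference was 5.62 for IRT1, the broad iron importer, 4.11 for IRT2, 5.73 for the ferric reductase FRO2 and 2.05 for FIT, their bHLH regulator. It was 4.65 for MYB10, 7.01 for MYB72, 1.07 for PYE, 5.86 for BHLH38, 4.83 for BHLH39, 6.9 for BHLH100 and 3.86 for BHLH101, all of them regulators. In rosettes the differences were 9.17 for BHLH100, 8.48 for BHLH38, 7.72 for BHLH39, 6.83 for BHLH101, 3.48 for IRT1, 2.96 for FRO2, 2.73 for PYE and 1.44 for MYB10. The rosette call of MYB10 (adjusted p = 0.0292) was lost without any of 5 rosette libraries, with an adjusted p of 0.0776, 0.105 and 0.12 without Fe-deficient replicates 1, 2 and 3, and of 0.0562 and 0.0892 without control replicates 2 and 3, and it was also lost in 2 other alternatives. FIT was at 0.97 ± 0.278 RPKM in Fe-deficient rosettes and 0.903 ± 0.548 RPKM in control rosettes (SD, n = 3 each), under the filter. MTP3 induction is known to depend on FIT, and the part of FIT in the MTP3 values here was not tested.

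**Figure D4:**
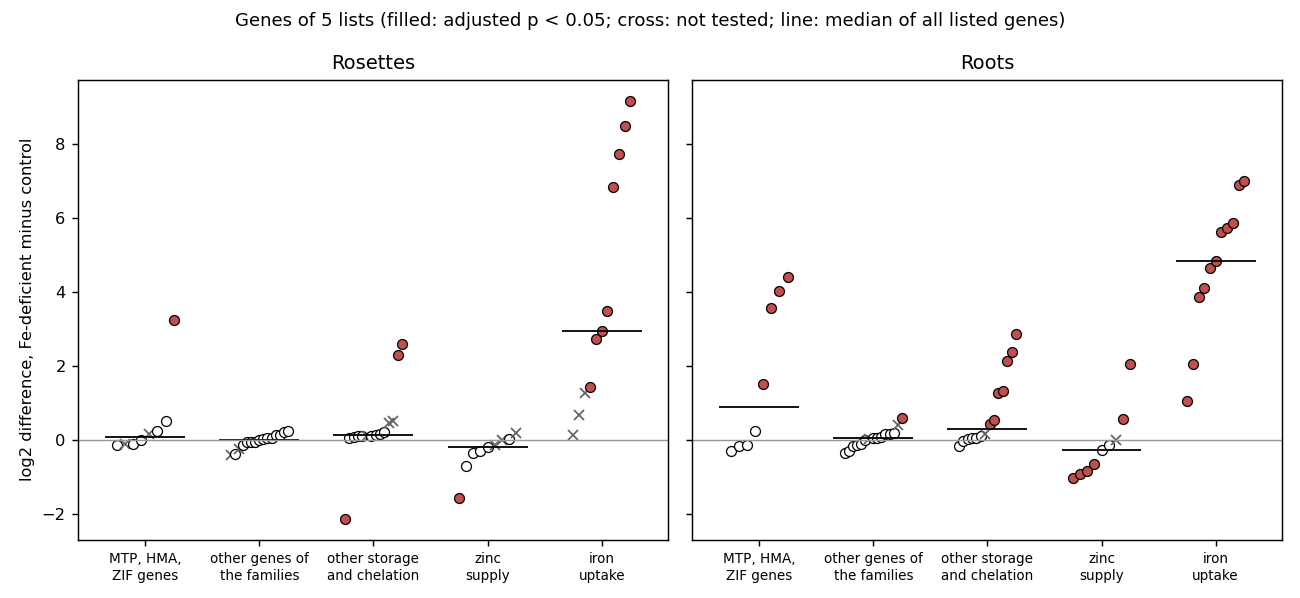
Log2 difference (Fe-deficient minus control) of each gene in 5 lists, in rosettes and in roots, filled where the adjusted p is under 0.05 and crossed where the gene was too low to test, with a line at the median of all listed genes. The 8 genes have a median of 0.89 in roots, beside 0.06 for the other genes of their families, 0.31 for other storage and chelation genes, -0.27 for zinc supply and 4.83 for iron uptake.

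The authors' deposited table, which carries a p-value per gene rounded to 2 decimals, lists 0 for ZIF1 in rosettes and for MTP3, MTP8, HMA3 and ZIF1 in roots. In the authors' deposited table the other members have p-values of 0.68 to 0.98 in rosettes and 0.42 to 0.73 in roots. The authors' expression filter marks MTP3, MTP8 and HMA3 as low in rosettes and no member as low in roots. That table gives log2 fold changes of 4.14 for MTP3, 5.37 for MTP8, 3.97 for HMA3 and 1.54 for ZIF1 in roots and 3.29 for ZIF1 in rosettes. For low genes these exceed the differences above because the authors' deposited table takes the log2 ratio of the group means with no value added.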

How the data were processed

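Polyadenylated RNA of 12 libraries was measured in 4 groups of 3, placed by the sample titles. The authors deposited 1 table per organ. The headers do not name the unit, and the deposited values behave as RPKM: multiplied by transcript length their sums lie between 1128597 and 1131654 in rosette libraries and between 1125582 and 1127821 in root libraries. The distribution of the deposited RPKM is nearly the same in the 6 libraries of a table, which can tie highly expressed genes and removes a change common to most genes. Per the submitters' processing notes, the tools include bcl2fastq 1.8.4, Trimmomatic 0.35, Bowtie2 2.0.6, edgeR 3.12.1 and limma 3.26.9, and the build TAIR10; read counting and its use of strand are not given in the sources used here. The deposited tables also hold the authors' p-value per gene, log2 fold change and expression filter. All 12 columns of sample values were matched by name, and 4 transgene rows were left out.

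Values were compared as log2(RPKM + 0.5) with limma 3.58.1 in R 4.3.3 (eBayes with a trend, two-sided), for genes that averaged 1 RPKM or more in the table, with Benjamini-Hochberg adjustment over all genes tested. The tables were normalised separately, so tests were made within a table, and the organ comparison tests the rosette log2 difference minus the root one, with Satterthwaite degrees of freedom. The fit was tested on simulated data. Depth is unknown, so the spread between libraries is the error used. The labels do not say whether replicates are separate cultures, so p-values measure the spread between these samples, which may be technical.

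The members and gene lists were chosen with earlier results of these data known. Named are all 8 members and every gene of the 4 pathway lists called in either organ. Also named are the 3 genes most like each member called in roots, and the genes that overlap the windows before MTP3 and MTP1. MTP2 and MTP4, FIT in rosettes and the markers RBCS1A, RCA and CAB1 were added after their values were seen. Alternatives were other pseudocounts (0.1 and 1), no filter or a mean of 5, eBayes without a trend or robust, array weights, 1 fit of 12 libraries, a replicate block, and each library left out in turn. Sequences and annotation are RefSeq TAIR10.1; the deposited tables hold no coordinates.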

Additional observations from a re-analysis of the deposited data

Results flagged for a closer look

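The response to iron deficiency differed between organs for 2 of the members tested in both. For MTP3 the rosette log2 difference minus the root one was -3.53 (adjusted p = 1e-05), with a small uncalled difference in rosettes and a rise in roots. For ZIF1 it was 1.74 (adjusted p = 2.25e-07), with a rise in both organs that was larger in rosettes. Both were marked because the difference itself passed its test.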

How the results depend on the processing

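The calls on MTP3, MTP8, HMA3 and ZIF1 in roots, on ZIF1 in rosettes and on the organ differences of MTP3 and ZIF1 were kept in every alternative that tested them. Their log2 differences ranged in roots over 3.94 to 4.13 for MTP3, 3.82 to 5.27 for MTP8, 3.25 to 3.91 for HMA3 and 1.47 to 1.57 for ZIF1, and in rosettes over 3.21 to 3.29 for ZIF1. The highest adjusted p among these was 0.00853, for MTP8. ZIFL1 in roots was called in 1 fit of all 12 libraries (0.26, adjusted p = 0.0479) and in no other. MTP8 and HMA3 in rosettes, which had no test, were 0.16 and -0.1, and with a pseudocount of 0.1 they were 0.45 and -0.26. Small uncalled differences changed sign: MTP1 in rosettes ranged over -0.04 to 0.04 with 1 library left out (-0.04 without Fe-deficient replicate 3, -0.02 without control replicate 2), the organ difference of HMA4 over -0.06 to 0.07 (-0.02 with array weights), and that of ZIFL1 over -0.07 to 0.03. The cause was not tested.

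The count of called genes in rosettes, 372, was 559 with array weights, 562 in 1 fit of 12 libraries and 167 to 330 with 1 library left out, lowest without control replicate 1. In roots 1170 genes were called, 692 with no filter and 523 to 971 with 1 library left out, lowest without control replicate 2, where 393 were higher and 130 lower. The organ difference gave 616, and 441 to 661 with 1 library left out. Deviations of same-numbered libraries from their group means correlated at 0.088, -0.16 and 0.247 in rosettes and -0.003, 0.006 and 0.103 in roots. Those of differently numbered libraries correlated at -0.309 to 0.244 in rosettes and -0.087 to 0.084 in roots. With 3 libraries per group, these values cannot decide whether the replicate numbers pair the samples. With the replicate block 188 genes were called in rosettes, 880 in roots and 697 for the organ difference, and no call on the 8 genes changed. Unknown depth leaves the lowest values, such as MTP8 and HMA3 in rosettes, without a counting error. Some of the lowest values had no spread, such as MTP2 at 0.04 ± 0 RPKM in control roots. A low value above 0 therefore need not mean that a transcript was detected.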
